A study of Mus musculus with 6 samples.

Results

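Transcripts of the solute carrier genes were followed in cultured mouse bone marrow cells in which short hairpin RNAs targeted Rad21, a subunit of the ring-shaped cohesin complex. The members were the genes whose symbol is Slc followed by a number and whose mean log2 intensity over all 6 arrays was 6.7 or more, about the array median. Slc7a5, Slc4a1, Slc25a37 and Slc2a1 were left out by name. Of 12393 genes with a probe set of their own, 262 carried such a symbol, and 126 of them were members. Another 132 lay under the limit. The mean level chose the members, so a gene seen only in the group where it is high also had to differ, and counts over the members describe them without supporting anything. Just inside the limit lay Slc37a1 (mean 6.71), Slc9a3r2 (6.74) and Slc41a2 (6.75), and just outside it Slc22a23 (6.57), Slc20a2 (6.59) and Slc9a8 (6.68). The members include 3 genes that are named after a carrier but are not carriers themselves: the scaffold genes Slc9a3r1 and Slc9a3r2, and Slc4a1ap, which encodes an adaptor protein.

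RNA was measured on 6 Affymetrix arrays, 2 for each of 3 lentivirus groups: Rad21 shRNA1, Rad21 shRNA2 and empty vector. All cells were lineage-depleted marrow of C57/BL6 animals, 6 to 8 weeks of age, infected for 24 h, selected in puromycin at 1 µg/mL, sorted live and plated at 10000 cells/mL in methylcellulose with cytokines. They were collected on day 7. Whether the 2 replicates of a group were separate animals or cultures is not given, so the p-values cover array-to-array spread that may be only technical. In such mixed cultures, fewer cells of a type and less RNA per cell cannot be told apart.

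Solute carriers are membrane proteins that move small molecules across the plasma membrane and the membranes of organelles. Some let a solute run down its gradient, others couple it to sodium, protons or an exchanged solute. Blood progenitors and myeloid cells need them for amino acids, glucose, nucleosides, phosphate, vitamins and metals. Macrophages and neutrophils also use particular carriers at the phagosome and lysosome, and red cell precursors draw on carriers for heme synthesis.

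Rad21 itself stood at 9.63 and 9.14 with shRNA1, 9.50 and 9.11 with shRNA2 and 11.14 and 10.49 with empty vector, in log2 intensity (-1.47 ± 0.26, adjusted p = 0.0558), lower on all 4 shRNA arrays without passing the threshold of 0.05. The quality controls of empty-vector replicate 1 stood apart: the 3′ minus 5′ gap of its Gapdh control probe sets was 2.42 in log2, against -0.078 to 0.017 on the other 5 arrays. Over the members, the root mean square distance from the group mean was 0.186 for shRNA1, 0.174 for shRNA2 and 0.375 for empty vector. The fit pools these spreads into 1 estimate per gene. With 1 empty-vector array left out, that estimate comes from the shRNA arrays alone. Tests of such fits hold no spread between control arrays, and those fits are among the alternatives below. The empty-vector arrays differed by more than 1 log2 unit in 20 members (15.9%; 16.3% of all genes at or above the level limit and 10.9% of all genes), with replicate 1 the lower in 14 of them. Leaving out replicate 1 moved the difference of both shRNAs from empty vector by over 1.5 times, or turned it round, in 82 members, and leaving out replicate 2 did so in 82, each 65.1% of members, where 73.8% and 70.8% of all genes at or above the level limit did.

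Among the 126 members, 6 passed the test for both shRNAs against empty vector, 2 rising and 4 falling (limma, Benjamini-Hochberg adjusted p under 0.05 over all 12393 genes). The GABA transporter gene Slc6a13 and the zinc importer gene Slc39a4 rose. Slc30a4, which loads zinc into vesicles, the calcium exchanger gene Slc24a3, the lysosomal peptide transporter gene Slc15a3 and the sugar-phosphate carrier gene Slc37a2 fell. A positive log2 difference means higher with the shRNAs than with empty vector, and ± gives its limma standard error, from 4 shRNA and 2 empty-vector arrays. The 6 calls are 4.76% of members, where 2.13% of all genes passed, 0.734% upwards and 1.4% downwards, and 2.85% of all genes at or above the same level limit. The median member differed by -0.067, the median of all genes being -0.023, and the members ran from -2.53 (Slc7a2) to 2.34 (Slc6a13). Of the 126, 85 differed by less than 0.5 in either direction (67.5%; 80.9% of all genes and 72.7% of those at or above the level limit). Another 15 differed by more than 2-fold (11.9%; 5.24% and 7.02%). An unadjusted p under 0.05 was found in 36 members (28.6%), in 16.7% of all genes and in 23.5% of those at or above the level limit, shares against which the class counts below stand.

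All 4 shRNA arrays lay above both empty-vector arrays in 17 members (13.5%; 11.5% of all genes) and below both in 32 (25.4%; 13.6% of all genes). These shares were 16.3% and 14.3% among all genes at or above the level limit. Leaving out empty-vector replicate 1 gave 14 calls in place of 6, and leaving out replicate 2 gave 52, each time with the same 6 among them, where 5.24% and 25.2% of all genes passed. The count was 0 without shRNA1 replicate 1, 2 (Slc6a13 and Slc24a3) without shRNA1 replicate 2, and 0 without either shRNA2 replicate. Array weights, which let the noisier empty-vector arrays count for less, also left 0.

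**Figure D1:**
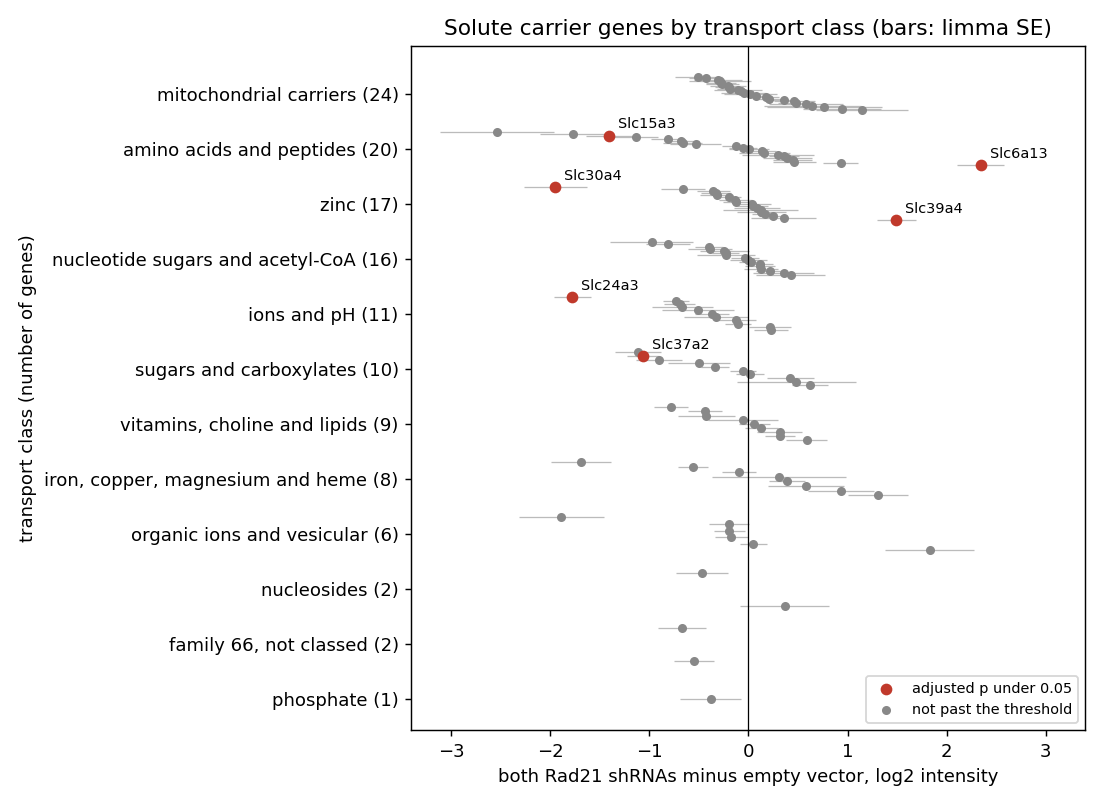
Difference of both Rad21 shRNAs from empty vector (log2 intensity, x axis) for each of the 126 members, grouped by transport class with the number of genes in brackets. Points are genes, bars are the limma standard error, and the 6 called genes are red and labelled, from -1.95 (Slc30a4) to 2.34 (Slc6a13).

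The promoters of 4 called members and of Slc6a12, the chromosomal neighbour of Slc6a13, are shown because these genes carry the differences described below. Each is a RefSeq window of the GRCm38.p6 build, from 250 bases before to 50 after an annotated start, and 99 of the 126 members have one. Where several are listed, the first is given. The windows are chr6:121300038-121300337, plus strand (Slc6a13), chr6:121342324-121342623, plus strand (Slc6a12), chr2:145167525-145167824, plus strand (Slc24a3), chr2:122702614-122702913, minus strand (Slc30a4) and chr9:37255689-37255988, minus strand (Slc37a2). Capitals mark matches on either strand to TGCACNC or TGCGCNC, the core of the metal response element, or to AGGGGGC or AGATGGC, letters from the core of the CTCF motif.
Slc6a13: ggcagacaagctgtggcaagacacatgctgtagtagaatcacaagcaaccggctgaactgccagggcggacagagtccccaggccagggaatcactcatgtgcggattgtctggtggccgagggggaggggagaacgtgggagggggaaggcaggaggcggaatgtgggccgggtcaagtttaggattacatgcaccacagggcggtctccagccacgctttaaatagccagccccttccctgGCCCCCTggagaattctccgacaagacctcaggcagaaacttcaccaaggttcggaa
Slc6a12: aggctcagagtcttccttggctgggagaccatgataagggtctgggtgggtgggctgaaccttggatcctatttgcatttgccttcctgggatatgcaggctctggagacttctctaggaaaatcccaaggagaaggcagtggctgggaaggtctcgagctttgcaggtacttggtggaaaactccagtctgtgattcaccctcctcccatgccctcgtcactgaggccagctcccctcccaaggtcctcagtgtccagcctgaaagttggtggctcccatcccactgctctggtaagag
Slc24a3: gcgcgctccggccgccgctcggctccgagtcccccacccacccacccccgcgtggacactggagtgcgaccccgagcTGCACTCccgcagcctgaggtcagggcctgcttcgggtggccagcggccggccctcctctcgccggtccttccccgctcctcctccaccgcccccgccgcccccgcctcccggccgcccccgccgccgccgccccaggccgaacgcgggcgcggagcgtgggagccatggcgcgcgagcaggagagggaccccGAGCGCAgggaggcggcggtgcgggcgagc
Slc30a4: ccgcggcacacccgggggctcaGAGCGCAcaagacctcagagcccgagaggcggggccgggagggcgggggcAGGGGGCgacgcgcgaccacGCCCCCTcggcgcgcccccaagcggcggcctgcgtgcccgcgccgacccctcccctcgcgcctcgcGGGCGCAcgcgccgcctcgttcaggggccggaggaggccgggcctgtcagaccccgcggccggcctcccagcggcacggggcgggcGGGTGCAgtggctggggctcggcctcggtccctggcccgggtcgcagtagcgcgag
Slc37a2: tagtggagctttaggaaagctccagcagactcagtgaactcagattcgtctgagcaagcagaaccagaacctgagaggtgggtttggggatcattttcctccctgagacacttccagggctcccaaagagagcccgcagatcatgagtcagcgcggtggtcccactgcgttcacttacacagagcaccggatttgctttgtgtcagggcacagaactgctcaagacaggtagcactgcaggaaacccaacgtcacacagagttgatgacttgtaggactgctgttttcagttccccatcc

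The Slc30a4 window held 3 matches to the metal response element letters and 2 to the CTCF letters, the Slc24a3 window 2 and 0, and the Slc6a13 window 0 and 1. Those of Slc6a12 and Slc37a2 held neither. Metal response element letters occurred in 25.7% of all 32851 promoter windows and in the first window of 47 of 99 members (47.5%), and CTCF letters in 16.3% and 22.2%. Base composition moves with this: the member windows had a median GC content of 61.7% and all windows 52.7%, and its part in the shares was not tested. The PU.1-type letters GAGGAAG, the C/EBP-type letters TTGCNNAA and the GATA-type letters AGATAA were in none of the 5 windows shown. They occurred in 13.6%, 10.8% and 11.2% of all windows, and in 11.1%, 5.05% and 3.03% of the member windows. None of the matched stretches of different motifs overlapped in the windows shown.

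Amino acid and peptide transporters were the class with the widest range. Of 20 members, 1 rose (Slc6a13) and 1 fell (Slc15a3), with a class median of -0.023 (-0.0017 without empty-vector replicate 1 and -0.20 without replicate 2). Slc6a13 encodes a sodium-coupled transporter of GABA and taurine known from liver, kidney and the brain's coverings. It stood at 10.30 and 9.77 with shRNA1, 10.51 and 9.91 with shRNA2 and 7.71 and 7.85 with empty vector. All 4 shRNA arrays were above 9.7, both empty-vector arrays below 7.9, and the groups did not overlap. The difference was 2.34 ± 0.24, or 5.08-fold (adjusted p = 0.0148, lowest and highest over all alternatives 0.00548 and 0.0904). It was 2.27 without empty-vector replicate 1 and 2.42 without replicate 2.

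Slc15a3, whose product carries histidine and small peptides out of lysosomes, stood at 9.76 and 10.12 with shRNA1, 8.63 and 8.54 with shRNA2 and 10.31 and 11.02 with empty vector. Every shRNA array was below both empty-vector arrays, and the shRNA2 arrays were more than 1 log2 unit below the shRNA1 arrays. It fell by 1.40 ± 0.24 on the log2 scale, close to the threshold (adjusted p = 0.0498, 0.0121 to 0.214 over all alternatives), and passed in 5 of 16 alternatives. Its lysosomal relative Slc15a4 differed by 0.36 ± 0.15 (adjusted p = 0.322).

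The largest difference of any member did not pass. Slc7a2, the arginine transporter that macrophages induce when activated, stood at 7.04 and 7.56 with shRNA1, 5.33 and 5.48 with shRNA2 and 7.81 and 9.97 with empty vector. Its groups did not overlap, but the empty-vector arrays were 2.16 apart and the shRNA2 arrays lay below the shRNA1 arrays. The difference of -2.53 ± 0.57 had an adjusted p of 0.102, and was -3.61 without empty-vector replicate 1 and -1.45 without replicate 2. Its 2nd brightest probe set differed by -2.48.

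Several other carriers of the class were lower on all shRNA arrays without passing. Slc7a8, a light chain for large neutral amino acids, stood at 7.96 and 8.19 with shRNA1, 7.95 and 8.18 with shRNA2 and 10.43 and 9.25 with empty vector, a difference of -1.77 ± 0.33 (adjusted p = 0.0631). It was -1.18 without empty-vector replicate 1 and -2.36 without replicate 2. Slc3a2, the heavy chain that brings such light chains to the cell surface, differed by -0.81 ± 0.17 (adjusted p = 0.0872). It stood at 11.16 and 11.02 with shRNA1, 11.24 and 10.79 with shRNA2 and 11.93 and 11.80 with empty vector. The difference was -0.75 without empty-vector replicate 1 and -0.88 without replicate 2. The glycine transporter gene Slc6a9, which supplies heme synthesis in red cell precursors, differed by -1.13 ± 0.22 (adjusted p = 0.0698). Its difference was -0.78 without empty-vector replicate 1 and -1.48 without replicate 2, and its 2nd brightest probe set differed by -0.41. The creatine transporter gene Slc6a8 (-0.68) and the orphan Slc7a4 (-0.66) were the other 2 whose shRNA arrays were all below both empty-vector arrays. Glutamine carriers were near 0: Slc1a5 differed by -0.051 ± 0.14, Slc38a1 by 0.14 ± 0.14 and Slc38a2 by 0.16 ± 0.26. The cystine carrier gene Slc7a11 differed by 0.30 ± 0.36 (adjusted p = 0.751), and the other members of the class lay between -0.53 (the serotonin transporter gene Slc6a4) and 0.93 (Slc6a12).

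Zinc carriers fall into importers into the cytosol (Slc39) and exporters from it (Slc30). Of 17 members, 1 of each kind passed. Slc39a4, the intestinal zinc importer lost in the human disorder acrodermatitis enteropathica, stood at 9.85 and 9.57 with shRNA1, 9.82 and 9.41 with shRNA2 and 7.99 and 8.36 with empty vector. The groups did not overlap. It rose by 1.49 ± 0.20, or 2.81-fold (adjusted p = 0.0301, 0.00560 to 0.150 over all alternatives). Slc30a4, the vesicular exporter mutated in the lethal milk mouse, stood at 6.44 and 6.80 with shRNA1, 5.77 and 5.48 with shRNA2 and 7.54 and 8.61 with empty vector. Every shRNA array was below both empty-vector arrays, which themselves differed by 1.08. It fell by 1.95 ± 0.32 on the log2 scale, 3.86-fold (adjusted p = 0.0470, 0.00789 to 0.211 over all alternatives).

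The remaining 15 zinc carriers lay between -0.66 and 0.36. Among the other 9 importers the lowest was Slc39a14, which also carries iron, at -0.66 ± 0.22 (adjusted p = 0.225). Its difference was -0.99 without empty-vector replicate 1 and -0.33 without replicate 2. Slc39a8 differed by 0.04 ± 0.18. The 6 other exporters were all between 0.042 and 0.36 against both empty-vector arrays. Slc30a5 and Slc30a9 were higher on every shRNA array. Slc30a6 and Slc30a7 were lowest on empty-vector replicate 1 and highest on replicate 2, so against replicate 2 alone both were lower with the shRNAs. The plasma membrane exporter gene Slc30a1 differed by 0.12 ± 0.38 (0.62 without empty-vector replicate 1 and -0.37 without replicate 2). On this gene replicate 1 was above replicate 2 in each group, at 7.62 and 6.89 with shRNA1, 7.61 and 6.86 with shRNA2 and 7.61 and 6.63 with empty vector. The zinc storage genes Mt1 and Mt2, which zinc induces, were likewise higher in replicate 1 of each group: Mt1 differed by 0.58 ± 0.50 (adjusted p = 0.630).

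Carriers of iron, copper, magnesium and heme had 8 members and no call for both shRNAs (limma), with 4 at an unadjusted p under 0.05. The magnesium transporter gene Slc41a2 stood at 6.43 and 7.06 with shRNA1, 5.35 and 5.92 with shRNA2 and 7.52 and 8.24 with empty vector, a difference of -1.69 ± 0.31 (adjusted p = 0.0593, and 0.0127 with the replicate number as a block). All its shRNA arrays were below both empty-vector arrays, and it differed by -2.05 without empty-vector replicate 1 and -1.33 without replicate 2. Slc11a1, which pumps iron and manganese out of phagosomes in macrophages and neutrophils, stood at 9.57 and 9.03 with shRNA1, 9.19 and 8.56 with shRNA2 and 7.42 and 8.15 with empty vector. It was higher on every shRNA array, by 1.30 ± 0.30 (adjusted p = 0.108), or 0.94 without empty-vector replicate 1 and 1.67 without replicate 2. The iron exporter gene ferroportin, Slc40a1, stood at 8.94 and 8.19 with shRNA1, 8.54 and 8.93 with shRNA2 and 8.17 and 7.26 with empty vector, a difference of 0.94 ± 0.34 (adjusted p = 0.246), and the groups were less than 0.1 apart at their nearest arrays. It was 1.39 without empty-vector replicate 1 and 0.48 without replicate 2. Slc11a2, which brings iron out of endosomes, differed by -0.56 ± 0.15 (-0.38 without empty-vector replicate 1 and -0.74 without replicate 2). The heme carrier gene Slc48a1 differed by 0.39 ± 0.18 (0.12 without empty-vector replicate 1 and 0.65 without replicate 2).

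In both copper carriers the value moved with empty-vector replicate 1. The importer gene Slc31a1 stood at 9.08 and 8.99 with shRNA1, 8.63 and 8.78 with shRNA2 and 7.57 and 9.0 with empty vector, and Slc31a2 at 9.17 and 9.87 with shRNA1, 8.44 and 8.86 with shRNA2 and 7.52 and 10.04 with empty vector. Replicate 1 was the lowest of all 6 arrays in both genes and replicate 2 lay within or above the range of the shRNA arrays. Without replicate 1 the Slc31a2 difference was -0.95, and without replicate 2 it was 1.57. Magnesium carrier gene Slc41a3 differed by -0.096 ± 0.17.

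The ion and pH class had 11 members, among them Slc9a3r1, Slc9a3r2 and Slc4a1ap, which are not carriers themselves. Differences were negative in 9 of the 11, including these 3 genes. Of all genes 53.6% were negative, and 47.2% of those at or above the level limit. The class median was -0.37, the value of Slc4a1ap, but -0.11 without empty-vector replicate 1 and -0.60 without replicate 2. One fell: Slc24a3, a potassium-dependent sodium/calcium exchanger, stood at 6.93 and 7.45 with shRNA1, 7.10 and 7.28 with shRNA2 and 8.91 and 9.01 with empty vector. The empty-vector arrays were 0.1 apart and all shRNA arrays more than 1.4 below them. The fall of 1.77 ± 0.19 on the log2 scale (3.42-fold, adjusted p = 0.0154, 0.00620 to 0.0997 over all alternatives) was 1.82 without empty-vector replicate 1. The potassium-chloride cotransporter genes Slc12a4 (-0.73 ± 0.13, adjusted p = 0.0593) and Slc12a7 (-0.69 ± 0.16, 0.102) were also lower on all shRNA arrays. They differed by -0.64 and -0.58 without empty-vector replicate 1, and by -0.83 and -0.81 without replicate 2. The mitochondrial sodium/calcium exchanger gene Slc8b1 differed by 0.22 ± 0.21. The anion exchanger gene Slc4a2 and the scaffold gene Slc9a3r1 were high on empty-vector replicate 1 alone: Slc9a3r1 stood at 10.89 and 10.91 with shRNA1, 11.06 and 11.08 with shRNA2 and 12.21 and 11.10 with empty vector, and its difference was -0.67 with both control arrays and -0.11 without replicate 1.

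Sugar and carboxylate carriers had 10 members. Slc37a2, a sugar-phosphate carrier of the endoplasmic reticulum that is abundant in macrophages, stood at 7.02 and 7.32 with shRNA1, 6.14 and 6.39 with shRNA2 and 7.70 and 7.87 with empty vector. It fell by 1.06 ± 0.16 on the log2 scale, 2.09-fold (adjusted p = 0.0412, 0.0165 to 0.195 over all alternatives). The groups did not overlap, and the shRNA2 arrays were the lowest. The other 3 genes of its family did not pass: Slc37a1 (0.018 ± 0.14), Slc37a3 (-0.50 ± 0.32; -0.90 without empty-vector replicate 1 and -0.097 without replicate 2) and the glucose-6-phosphate transporter gene Slc37a4 (-0.051 ± 0.13). The high-affinity glucose transporter gene Slc2a3 stood at 11.25 and 11.75 with shRNA1, 10.89 and 10.95 with shRNA2 and 12.63 and 12.02 with empty vector, a difference of -1.12 ± 0.23 (adjusted p = 0.0867). It was -0.81 without empty-vector replicate 1 and -1.42 without replicate 2. Its 2nd brightest probe set differed by -1.25. All 4 shRNA arrays of the lactate and pyruvate carrier gene Slc16a1 were above both empty-vector arrays, by 0.62 ± 0.18 (adjusted p = 0.174). Slc16a6, another gene of that family, was 0.75 to 1.66 higher in replicate 1 than in replicate 2 of each group, and differed by 0.48 ± 0.60.

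Of the 24 mitochondrial carriers of family 25, none passed (limma), 4 had an unadjusted p under 0.05, and 12 differences were positive and 12 negative, with a median of -0.015 (0.073 without empty-vector replicate 1 and -0.087 without replicate 2). The highest mean intensities of any members belonged to Slc25a5 and Slc25a3, which is no ranking of RNA amounts, since probe sets differ in brightness. Slc25a5, the adenine nucleotide translocase that trades ADP for ATP in dividing cells, stood at 12.65 and 12.55 with shRNA1, 12.87 and 12.81 with shRNA2 and 10.69 and 12.46 with empty vector. Empty-vector replicate 2 was within 0.1 of the lowest shRNA array and replicate 1 was 1.78 below replicate 2. The difference of 1.14 ± 0.46 (adjusted p = 0.299) was 0.25 without replicate 1 and 2.03 without replicate 2, and its other 7 probe sets differed by 0.92 to 1.35. Slc25a4, the translocase of muscle and heart, differed by 0.48 ± 0.19, or 0.21 without empty-vector replicate 1 and 0.75 without replicate 2. The phosphate carrier gene Slc25a3 stood at 12.14 and 12.15 with shRNA1, 12.20 and 12.24 with shRNA2 and 12.15 and 12.06 with empty vector, all within 0.2 of each other.

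The same control array moved other values of this class. Slc25a24, an ATP-magnesium/phosphate carrier gene, stood at 7.49 and 7.03 with shRNA1, 7.14 and 6.78 with shRNA2 and 5.26 and 7.43 with empty vector, a difference of 0.76 ± 0.58 with both controls and -0.32 without replicate 1. Slc25a17, a peroxisomal carrier gene (0.94), Slc25a30 (0.65) and the oxoglutarate carrier gene Slc25a11 (0.58) were also lowest on that array. The glutathione carrier gene Slc25a39 was highest on it, at 11.62 and 11.75 with shRNA1, 11.60 and 11.59 with shRNA2 and 12.55 and 11.75 with empty vector, and differed by -0.51 ± 0.24, or -0.11 without it. The smallest p in the class was that of the glutamate carrier gene Slc25a22 (-0.43 ± 0.17, adjusted p = 0.273), and the remaining members lay between -0.31 (Slc25a44) and 0.46 (Slc25a13).

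No member passed in the other classes for both shRNAs (limma). Carriers of nucleotide sugars and acetyl-CoA, which feed glycosylation in the Golgi and endoplasmic reticulum, had 16 members between -0.98 and 0.43 and 2 at an unadjusted p under 0.05. The lowest was the UDP-galactose carrier gene Slc35a2, whose brightest probe set was high on empty-vector replicate 1 alone. It stood at 8.54 and 8.83 with shRNA1, 8.45 and 8.66 with shRNA2 and 10.38 and 8.81 with empty vector. The other Slc35a2 probe sets differed by 0.15 to 0.18, the opposite way. Slc35f6 (-0.81 ± 0.22, adjusted p = 0.159) and Slc35a5 (-0.40 ± 0.14, 0.232) had the smallest p-values. Slc35f6 was -1.12 without empty-vector replicate 1 and -0.50 without replicate 2. The mean of all 5 Slc35a5 probe sets differed by 0.18, the opposite way. Carriers of vitamins, choline and lipids had 9 members between -0.78 and 0.59. These extremes were the ascorbate transporter gene Slc23a2 (-0.78 ± 0.18, adjusted p = 0.101) and the reduced folate carrier gene Slc19a1 (0.59 ± 0.21, 0.244). Slc19a1 was 0.92 without empty-vector replicate 1 and 0.25 without replicate 2, and its other probe sets differed by 1.04 and 0.17.

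Organic ion and vesicular carriers had 6 members, 2 of them with large differences. Slc14a1, the urea transporter of the red cell membrane, stood at 6.82 and 8.16 with shRNA1, 6.59 and 7.48 with shRNA2 and 9.24 and 9.05 with empty vector, a difference of -1.89 ± 0.43 (adjusted p = 0.102), and its 2nd probe set differed by -1.74. Slc22a4, which imports the antioxidant ergothioneine, stood at 7.87 and 7.03 with shRNA1, 7.76 and 7.13 with shRNA2 and 4.93 and 6.31 with empty vector, a difference of 1.83 ± 0.45 (adjusted p = 0.122). It was 1.14 without empty-vector replicate 1 and 2.52 without replicate 2. In both genes the shRNA arrays lay on 1 side of both empty-vector arrays. The other 4 lay between -0.20 and 0.049. Nucleoside carrier genes Slc29a1, of the plasma membrane (0.37 ± 0.45), and Slc29a3, of the lysosome (-0.47 ± 0.26), depended on which control array was used: Slc29a1 was -0.48 without empty-vector replicate 1 and 1.21 without replicate 2. The phosphate importer gene Slc20a1 differed by -0.38 ± 0.31, and by 0.063 without replicate 1. Slc66a1, a lysosomal exporter of cationic amino acids (-0.55 ± 0.20, adjusted p = 0.257), and Slc66a2 (-0.67 ± 0.24, 0.251) belong to a family that had been put in no class. Slc66a1 was -0.25 without empty-vector replicate 1 and -0.84 without replicate 2. Slc66a2 was -0.31 without empty-vector replicate 1 and -1.03 without replicate 2, and its 2nd brightest probe set differed by 0.060.

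**Figure D2:**
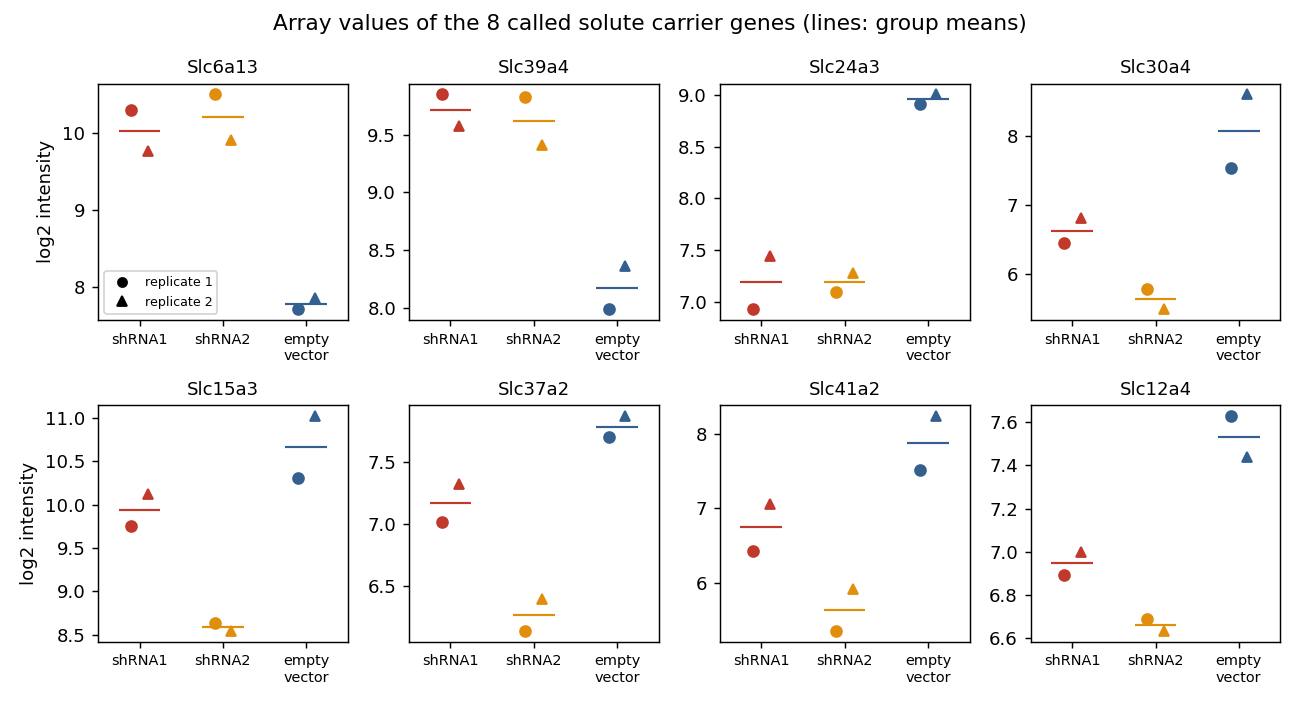
Log2 intensity (y axis) of the 8 members called for both shRNAs together or for shRNA2, on each array of the shRNA1, shRNA2 and empty-vector groups (x axis); circles are replicate 1, triangles replicate 2 and lines group means. In Slc6a13 all shRNA arrays lie above 9.7 and both empty-vector arrays below 7.9, and in Slc15a3, Slc30a4 and Slc41a2 the shRNA2 arrays are the lowest.

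Taken singly, shRNA2 gave 8 calls among the members (6.35%) and shRNA1 gave none (limma), where 2.83% and 0.234% of all genes passed. Among all genes at or above the level limit, 3.90% passed with shRNA2. Both comparisons use the same 2 empty-vector arrays. With shRNA2 the 6 genes above passed again, and Slc41a2 and Slc12a4 passed too. In all 2 rose, where 0.88% of all genes rose, and 6 fell, where 1.95% fell. Slc41a2 fell by 2.24 ± 0.35 on the log2 scale with shRNA2 (adjusted p = 0.0371), and differed by -1.13 ± 0.35 with shRNA1. Slc12a4 stood at 6.89 and 7.00 with shRNA1, 6.69 and 6.63 with shRNA2 and 7.63 and 7.44 with empty vector and fell by 0.87 ± 0.15 with shRNA2 (adjusted p = 0.0485), and differed by -0.59 ± 0.15 with shRNA1. The Slc12a4 call held in 3 of 15 alternatives, with an adjusted p of 0.00918 to 0.342, and was lost with the replicate block (0.0609) and with quantile normalization, median centring, an intensity trend, robust estimation, array weights or a pseudocount. With the block, Slc7a2 (-3.48 ± 0.66, adjusted p = 0.0343) and Slc23a2 (-1.0 ± 0.20, 0.0393) passed for shRNA2.

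For shRNA1, 21 members had an unadjusted p under 0.05 (16.7%; 9.30% of all genes and 12.5% of those at or above the level limit). The smallest adjusted p-values were those of Slc24a3 (-1.78 ± 0.21, adjusted p = 0.0545), Slc6a13 (2.26 ± 0.27, 0.0552) and Slc39a4 (1.54 ± 0.23, 0.0856). The first 2 passed with an intensity trend or median centring. With shRNA2 the same genes differed by -1.77 ± 0.21, 2.43 ± 0.27 and 1.44 ± 0.23. The shRNA2 count was 3 with array weights. Its calls were lost when either shRNA2 array was left out, which leaves 1 array in that group. They did not all hold without a shRNA1 array either. For each shRNA the count rose when 1 empty-vector array was left out, as did the count over all genes.

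The shRNAs were compared directly to ask whether their effects differed. No member and no gene passed (0.0% of all genes, limma), and 12 members had an unadjusted p under 0.05 (9.52%; 4.89% of all genes and 6.94% of those at or above the level limit). Differences here are shRNA1 minus shRNA2 with n = 2 and 2 arrays. The smallest p was that of Slc15a3, 1.35 ± 0.27 higher with shRNA1 (adjusted p = 0.427, and past the threshold with array weights), followed by Slc37a2 at 0.90 ± 0.19 (adjusted p = 0.452). The largest was Slc7a2 at 1.89 ± 0.66 (adjusted p = 0.897, and 0.0488 when either empty-vector array was left out of the pooled spread). Among the 12, 2 were lower with shRNA1, Slc45a3 (-0.83 ± 0.27) and the UDP-sugar carrier gene Slc35d1 (-0.45 ± 0.16). Both shRNA1 arrays were above both shRNA2 arrays in 36 members (28.6%; 17.7% of all genes) and below both in 21 (16.7%; 23.9% of all genes). Among all genes at or above the level limit these shares were 22.4% and 30.2%.

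**Figure D3:**
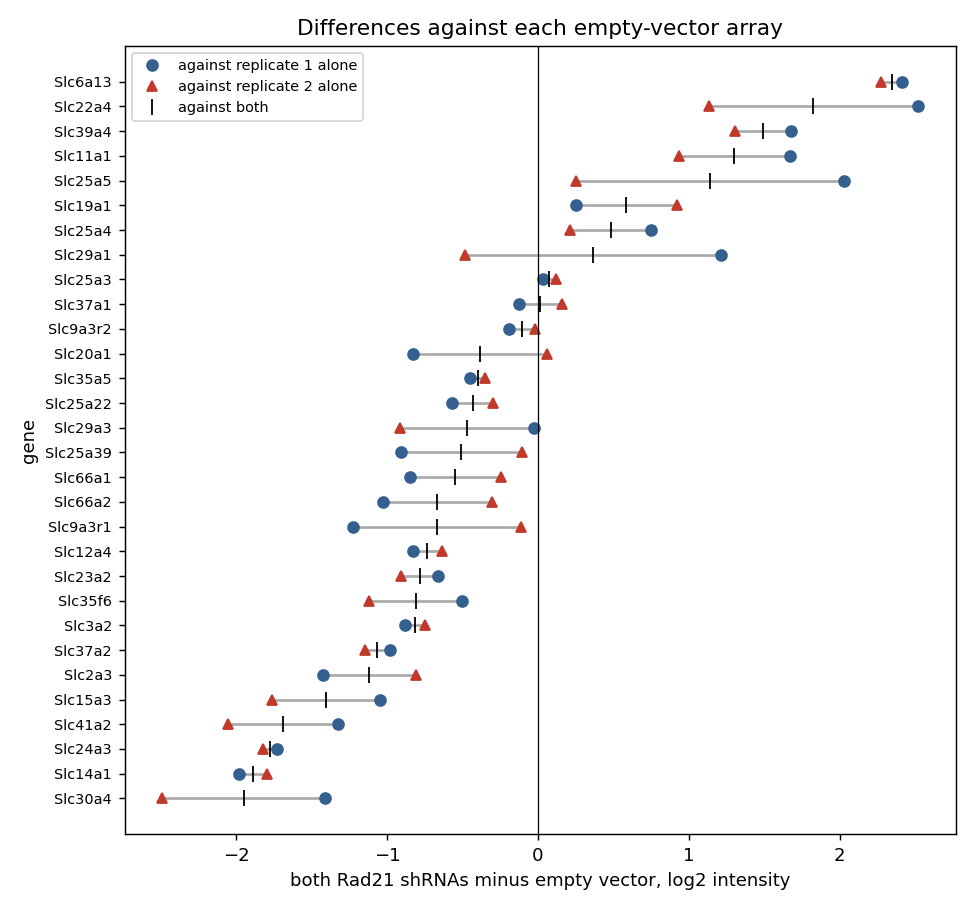
Difference of both shRNAs from empty vector (log2 intensity, x axis) for the 30 members named by rule (y axis), against empty-vector replicate 1 alone (circles), replicate 2 alone (triangles) and both (ticks). Slc6a13 and Slc24a3 barely move, while Slc25a5 lies at 2.03 against replicate 1 and at 0.25 against replicate 2.

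By position, 5 pairs of members stood next to each other or with 1 protein-coding gene between them in the RefSeq order of GRCm38.p6, which was used for order only. Slc6a13 and Slc6a12, direct neighbours on chromosome 6, were both higher on all shRNA arrays. Slc6a12, a transporter of betaine and GABA, stood at 9.30 and 9.08 with shRNA1, 9.20 and 8.89 with shRNA2 and 8.02 and 8.35 with empty vector. The difference was 0.93 ± 0.18 (adjusted p = 0.0650). The gene before Slc6a13, the interferon-induced Usp18, stood at 6.57 and 7.23 with shRNA1, 5.96 and 6.00 with shRNA2 and 8.16 and 9.12 with empty vector. It fell by 2.20 ± 0.32 on the log2 scale (adjusted p = 0.0365), the opposite way to its neighbour. Further out, Bid (0.63 ± 0.22), Pex26 (-0.67 ± 0.32), Tuba8 (-0.056 ± 0.15), A2m (0.067 ± 0.18) and Mug1 (0.070 ± 0.16) did not pass. All shRNA arrays of Bid were above both empty-vector arrays.

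In the other 4 pairs no gene passed. On chromosome 11, Slc22a4 differed by 1.83 and the carnitine carrier gene Slc22a5 by 0.049, with 1 gene between them. On chromosome 4, Slc31a2 differed by 0.31 and Slc31a1 by 0.58, both moved by empty-vector replicate 1 as described above. The adjacent Slc38a1 and Slc38a2 on chromosome 15 differed by 0.14 and 0.16, and Slc35b2 and Slc29a1 on chromosome 17, with 1 gene between them, by -0.035 and 0.37.

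**Figure D4:**
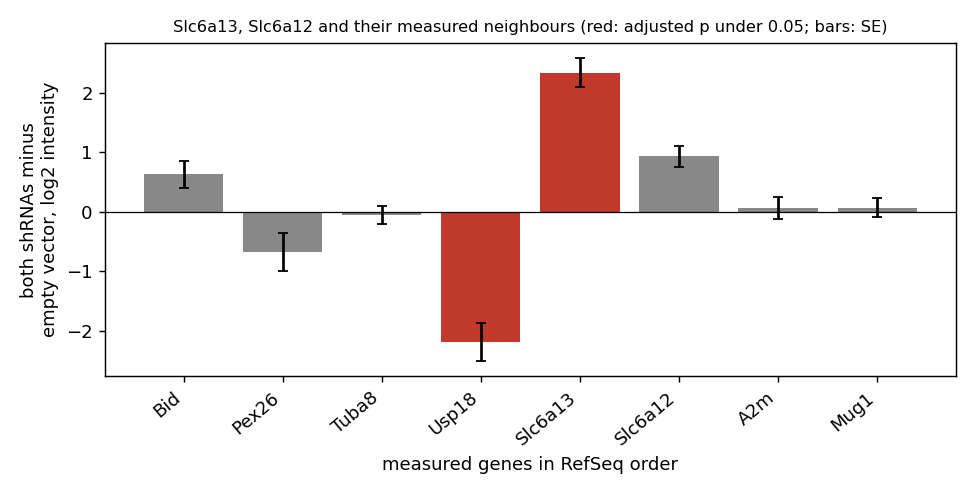
Difference of both shRNAs from empty vector (log2 intensity, y axis) for the measured genes around Slc6a13 in RefSeq order (x axis). Bars are differences, error bars the limma standard error and red bars genes past the threshold: Slc6a13 at 2.34 stands beside Usp18 at -2.20.

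Other transport genes gave few calls, and their counts stand against the shares of all genes. Of all genes, 2.13% passed for both shRNAs and 2.83% with shRNA2, and 16.7% had an unadjusted p under 0.05 for both shRNAs. Of 36 ABC transporter genes, whose products pump solutes with ATP, none passed for both shRNAs (limma; 3 at an unadjusted p under 0.05, median -0.14, -0.0093 without empty-vector replicate 1 and -0.086 without replicate 2). With shRNA2, 1 of the 36 passed (2.78%), the cholesterol exporter gene Abcg1, which fell by 1.75 on the log2 scale (limma, adjusted p = 0.0387). None of 11 Slco genes, the organic anion transporters, passed either (limma; 0 at an unadjusted p under 0.05, median -0.063, 0.051 without empty-vector replicate 1 and 0.00086 without replicate 2). Among 7 measured partner chains and pumps none passed, with 3 at an unadjusted p under 0.05 and a median of 0.47, which was 0.045 without empty-vector replicate 1 and 0.81 without replicate 2. Embigin, a chaperone of lactate carriers, stood at 12.02 and 11.87 with shRNA1, 11.64 and 11.74 with shRNA2 and 9.67 and 11.40 with empty vector (1.28 ± 0.45, adjusted p = 0.242), lowest on empty-vector replicate 1. Of 14 measured genes of zinc, iron and heme handling, 1 rose, the plasma ferroxidase gene ceruloplasmin: Cp stood at 6.33 and 5.97 with shRNA1, 6.79 and 6.42 with shRNA2 and 5.17 and 4.83 with empty vector (1.38 ± 0.20, adjusted p = 0.0361). The list median was 0.34, and 0.12 without empty-vector replicate 1 and 0.13 without replicate 2. Under the level limit, 2 of 132 solute carrier genes passed for both shRNAs (1.52%). The dicarboxylate carrier gene Slc13a2 rose (1.26) and the potassium-chloride cotransporter gene Slc12a5 fell (-0.95).

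Markers of several cell types differed as well. Their counts stand against 2.13% of all genes called for both shRNAs and 16.7% with an unadjusted p under 0.05. Of 12 measured neutrophil markers (14 listed), 5 rose, the granule protein genes Mpo, Elane, Prtn3 and Ctsg and the membrane protein gene Ms4a3, by 2.53 (Ctsg) to 5.34 (Mpo), and their summed intensity was 64484 to 85582 on shRNA arrays, against 28071 to 41474 on empty-vector arrays. Mast cell and basophil markers (2 of 9 measured fell, Fcer1a and Mcpt2) summed to 24722 to 33911 on shRNA arrays, against 40184 to 53752 on empty-vector arrays. Megakaryocyte markers (1 of 7 fell, Clec1b) summed to 7653 to 14506 on shRNA arrays, against 18173 to 20052 on empty-vector arrays. Dendritic cell markers (1 of 8 fell, Ccl17) summed to 1401 to 2758 on shRNA arrays, against 3958 to 5356 on empty-vector arrays. Monocyte and macrophage markers split, with 1 of 14 rising (Fcgr1, 2.51) and 2 falling (Cd36, -2.94, and Marco, -2.09), and summed to 33149 to 51283 on shRNA arrays, against 29655 to 56096 on empty-vector arrays. Their mean log2 intensity was 9.90 and 9.90 with shRNA1, 9.0 and 9.05 with shRNA2 and 9.38 and 10.03 with empty vector. Of the 8 measured erythroid markers none was called (limma), and 5 had an unadjusted p under 0.05. They summed to 1102 to 1494 on shRNA arrays, against 1765 to 8116 on empty-vector arrays, highest on empty-vector replicate 1. The erythroid median difference was -1.33, and -0.41 without empty-vector replicate 1 and -2.17 without replicate 2. B cell markers (1 of 6 fell, Blnk) summed to 234 to 268 on shRNA arrays, against 421 to 441 on empty-vector arrays. Their differences ran from -1.90 to 0.57 with a median of 0.017, 3 being positive and 3 negative. T and NK cell markers summed to 118 to 138 on shRNA arrays, against 103 to 119 on empty-vector arrays, and stromal and endothelial markers to 421 to 549 on shRNA arrays, against 440 to 448 on empty-vector arrays, with no call in either list (limma; 1 and 1 at an unadjusted p under 0.05). These arrays list no value of 0. The part of these cell types in the solute carrier differences was not tested.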

How the data were processed

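Total RNA from 6 samples of mouse bone marrow cells, 2 for each of 3 lentiviruses, was hybridised to 1-colour Affymetrix arrays. The deposited intensity values are linear and had been made with RMA by the authors, per the submitters' processing notes; no version of RMA is given in the sources used here. Its table held 22690 probe sets. The 20380 used had exactly 1 gene symbol in the platform annotation and were no controls, 691 with several genes and 1606 without a listed gene being left out. The brightest probe set by mean stood for each of 12393 genes. In 21 of the 59 members with several probe sets these differ in sign. RefSeq (GRCm38.p6) held the Entrez ID of 20351 probe sets and changed 0 symbols.

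Intensities were taken to log2 with no pseudocount, and 1 limma fit (version 3.58.1, R 4.3.3, 3 residual and 2.9058 prior degrees of freedom) over all genes and the 3 groups gave two-sided tests, adjusted by Benjamini-Hochberg over all genes with a threshold of 0.05. The number of arrays limits the precision. The script was tested on simulated data. Same-numbered replicates deviated together (correlations over genes 0.199, 0.148 and 0.578), so a fit with the replicate number as a block was set beside it.

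Genes were named by rule: every called member, the 2 with the smallest p in each class, the 6 brightest and the 3 just above the level limit, which gave 30 members. The 3 genes just below the limit are named by their level alone. Other genes named were chosen after their values were seen. The members, lists and tests were chosen with earlier results of these data known. Alternatives were other filters, probe-set averaging, quantile normalization, median centring, an intensity trend, robust estimation, array weights, a pseudocount of 16 and leaving out each array.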

Additional observations from a re-analysis of the deposited data

How the results depend on the processing

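The count of 6 members called for both shRNAs lay between 0 and 52 when 1 array was left out, the highest value being that without empty-vector replicate 2. It was 0 with array weights, 2 with a pseudocount of 16 and 3 without the dimmer 50% of genes, where fewer genes were tested, and 4 to 7 under the other alternatives. For shRNA1 the count of 0 lay between 0 and 42 with 1 array left out, and was 2 with an intensity trend and 2 with median centring. For shRNA2 the count of 8 lay between 0 and 48, and was 3 with array weights, 4 with a pseudocount of 16 and 4 without the dimmer 50% of genes. Between the shRNAs the count of 0 lay between 0 and 1, and was 1 with array weights. With the replicate block the counts were 7 for both shRNAs, 0 for shRNA1, 9 for shRNA2 and 0 between the shRNAs, and it changed no other call among the members than those given for Slc41a2, Slc7a2, Slc23a2 and Slc12a4. Of 597 results of the 30 genes named by rule, 491 kept direction and call, 83 lost the call, 19 gained it and 4 turned round. A result not called at first could not lose a call, so all 83 losses fell on the 8 called members. Calls for both shRNAs held in 5 of 16 (Slc15a3) to 12 of 16 alternatives (Slc24a3 and Slc6a13). With shRNA2 they held in 3 of 15 (Slc12a4) to 13 of 16 (Slc24a3 and Slc6a13). The results that turned round were those of Slc20a1 (-0.82 to 0.063 with 1 array left out), Slc29a1 (-0.48 to 1.21), Slc37a1 (-0.12 to 0.16) and Slc35a5. Slc35a5 stood at 0.18 with the mean of all probe sets. The cause was not tested. With 2 arrays in a group, a difference that missed the threshold is not shown to be absent.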
